A study of Mus musculus with 7 samples.

Results

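Collagens, laminins, nidogens and the basement membrane proteoglycans perlecan (Hspg2) and agrin (Agrn) were examined in mouse retina after infusion of angiotensin II (Ang II) or saline. The genes were chosen by name among the protein-coding genes of the count table, which gave 59 of 54532 genes. They comprised 11 fibrillar collagens, 8 basement membrane collagens (types IV, XV and XVIII), 25 other collagens, 11 laminins, and 4 nidogens and proteoglycans. The study had 4 Ang II libraries and 3 saline libraries, all labelled day 28. Both groups are labelled with genotype WT, while the series text calls the mice ApoE-/-. Apoe had 150 to 406 counts in every library, which does not settle the genotype. No label gives a strain, a dose of Ang II, an age or the number of animals behind a library, so p-values measure the spread between these libraries, which may be technical.

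Collagens are trimers of chains with long triple helices. Fibrillar collagens build the fibrils of sclera, vitreous and vessel walls, whereas type IV collagen and laminin form separate sheets that nidogens, perlecan and agrin link into basement membranes. In the eye such sheets make up the inner limiting membrane beside the vitreous, the coat of retinal vessels, part of Bruch's membrane behind the pigment epithelium, and the lens capsule. Ang II, a hormone that raises blood pressure, is known to promote matrix deposition in heart, kidney and vessel wall.

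Total counts were 14655431 to 17563493 per library, and Spearman correlations between libraries were 0.976 to 0.9901 across genes. Saline replicate 2 had the lowest total and the fewest genes with a count, 21260 beside 24024 to 24846 in the other libraries. Levels are given in CPM, read counts per 1000000 of the scaled library total, and lists of values follow the order of the replicates. The 6 photoreceptor markers made up 5.31% to 6.62% of the counts of every library, and summed to 51655 to 62796 CPM with Ang II and 63423 to 68439 CPM with saline. Markers of neighbouring tissue differed between libraries. The 12 pigment epithelium markers summed to 1425, 1471, 2032 and 1135 CPM with Ang II and 194, 231 and 1027 CPM with saline. The 8 lens markers summed to 51.9, 1995, 338 and 2.05 CPM with Ang II and 204, 31.5 and 411 CPM with saline. Gfap, which marks astrocytes and reactive glia, stood at 79.8 CPM in Ang II replicate 3, beside 6.84 to 9.603 CPM elsewhere. Of the other astrocyte markers Aldh1l1 was highest in that library (23.5 CPM, beside 10.2 to 16.3 CPM), and Pax2 was not. S100b was lowest there (5.12 CPM, beside 7.12 to 14.5 CPM), and so was the sum of 6 Müller glia markers (2920 CPM). Most of that sum came from Glul (1885 CPM there). Glul, Slc1a3 and Abca8a were lowest in that library, and Rlbp1, Aqp4 and Vim were not. In bulk libraries, fewer cells of a type and less RNA per cell cannot be told apart.

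The sequences before the transcription start are shown for Col8a1 and Col8a2, whose levels differed most between the groups, and for Col4a4 and Col4a3, which start back to back. They are from RefSeq on GRCm38.p6, written 5′ to 3′. Capitals mark the GC box GGGCGG on either strand. The Col8a1 stretch is chr16:57754738-57754987 on the minus strand and the Col8a2 stretch is chr4:126286544-126286793 on the plus strand. The stretch between the starts of Col4a4 and Col4a3 is chr1:82586850-82586920 on the plus strand.
Col8a1: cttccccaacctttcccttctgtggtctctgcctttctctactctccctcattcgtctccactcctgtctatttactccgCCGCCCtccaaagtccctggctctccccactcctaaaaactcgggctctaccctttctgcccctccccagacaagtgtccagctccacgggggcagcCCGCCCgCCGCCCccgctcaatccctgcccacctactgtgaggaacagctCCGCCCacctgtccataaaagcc
Col8a2: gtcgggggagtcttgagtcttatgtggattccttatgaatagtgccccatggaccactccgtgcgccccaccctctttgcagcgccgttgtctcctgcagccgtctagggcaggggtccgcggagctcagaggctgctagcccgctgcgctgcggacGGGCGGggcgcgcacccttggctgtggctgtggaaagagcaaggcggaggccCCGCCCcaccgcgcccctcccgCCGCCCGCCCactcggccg
Col4a4 to Col4a3: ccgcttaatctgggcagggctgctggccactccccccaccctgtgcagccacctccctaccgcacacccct
Both type VIII stretches held 4 GC boxes, of which 2 overlap each other in Col8a2. Their GC content was 60.8% for Col8a1 and 70% for Col8a2, beside a median of 52.4% over all promoters. A GC box was found in the same 250 bases of 32.7% of 32851 RefSeq promoters, and in those of 26 of the 43 members that the promoter table held. Neither stretch held CATGTG or CACGTG, the E-boxes found in 12.3% and 6.02% of promoters. TAATCC, a homeodomain motif (6.25%), and TATAAA (12.4%) were not among these letters either. The motifs were searched on both strands, and the 71 bases between Col4a4 and Col4a3 held none of them.

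Set against gene length, agrin had the highest mean level of the 59 genes over all 7 libraries. With Ang II alone Col8a2 was higher (13.6 against 11.6 CPM per kilobase for Agrn), and with saline alone Agrn was (12.2 against 4.66 CPM per kilobase). Agrn, whose product organizes synapses and ties laminin to the cell surface, stood at 11.9 ± 0.483 CPM per kilobase (mean ± SD, all 7 libraries). Col23a1, a transmembrane collagen, stood at 11.1 ± 0.914 CPM per kilobase, a difference smaller than its own spread. The next levels were 9.77 ± 6.13 for Col8a2, 7.44 ± 1.24 for Col6a1 and 6.58 ± 0.622 CPM per kilobase for Col9a1, a vitreous and cartilage chain. The type IV chains Col4a2 (6.05 ± 1.36), Col4a1 (5.94 ± 1.67) and Col4a3 (5.74 ± 1.69 CPM per kilobase) lay within each other's spread. The leading laminin was Lamc1, the gamma chain of most laminins, at 4.85 ± 0.428 CPM per kilobase. Col2a1, the main fibril chain of vitreous and cartilage, led the fibrillar collagens at 4.44 ± 0.442 CPM per kilobase. The scar and sclera chains were far lower, at 0.327 ± 0.108 for Col1a1, 0.156 ± 0.116 for Col1a2 and 0.02398 ± 0.0281 CPM per kilobase for Col3a1.

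**Figure D1:**
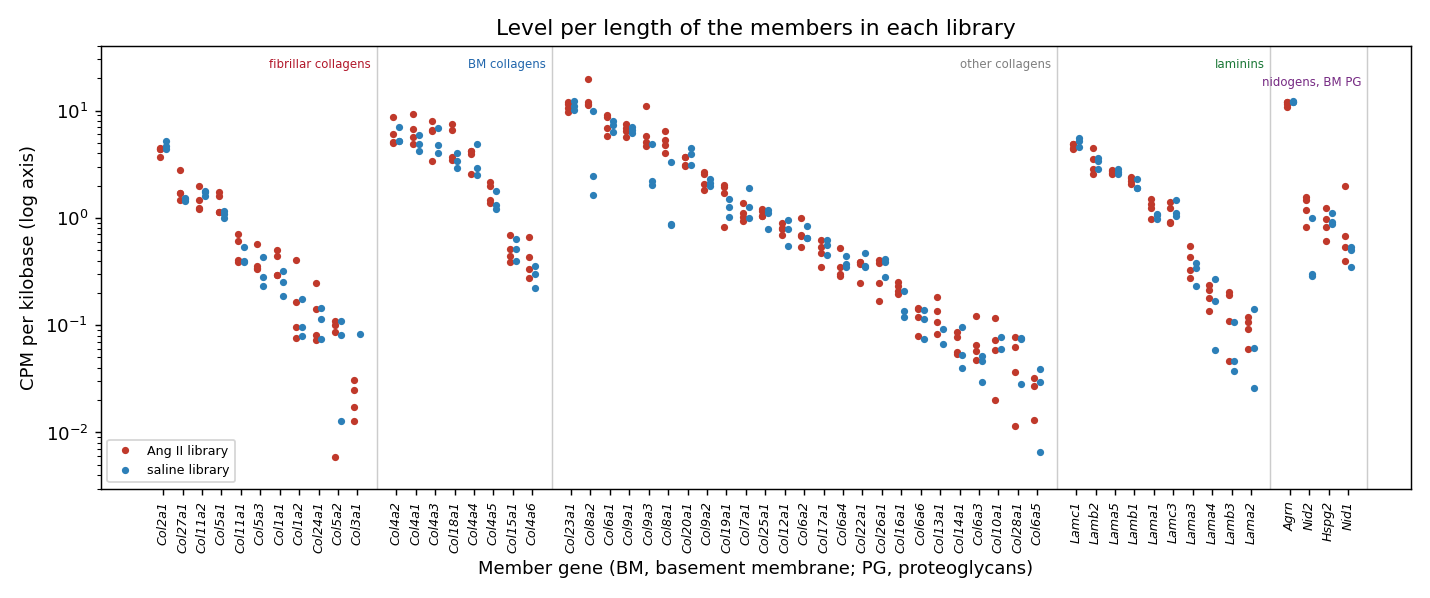
Level of the collagen, laminin, nidogen and proteoglycan genes in CPM per kilobase of gene length (log axis), ordered by mean within its class; each point is a library, red for Ang II and blue for saline, and libraries with 0 counts are not drawn. Agrn, Col23a1 and Col8a2 are highest, and in Col8a1, Col8a2, Col9a3 and Nid2 a pair of saline libraries lies apart below the rest.

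Of the 59 genes, 52 passed the filter on low counts, and 0 of them were called between Ang II and saline by edgeR's quasi-likelihood test with adjustment over all genes. The same test called 0 of all 17078 genes (0%), and the smallest adjusted p among the 52 was 0.982. Of the 52, 3 had an unadjusted p under 0.05 (Nid2, Col8a1 and Col9a3, all higher with Ang II), as did 4.62% of all genes. By direction, 2.9% of all genes were higher and 1.72% lower. DESeq2 called 0 of these genes, beside 0.213% of all genes. limma-voom with quality weights called 4 (Col8a1, Col8a2, Col9a3 and Nid2), beside 0.831% of all genes.

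A log2 fold change above 0 was found for 37 of the 52, beside 48.9% of all genes. Their median was 0.16, beside -0.005 for all genes. Scaling by library size alone gave 40 of 52, beside 60.7% of all genes. Without Ang II replicates 2 and 3, the libraries with high lens markers and high Gfap, the median was 0.02 and edgeR called 0 of these genes, beside 0.00581% of all genes. That alternative was chosen after seeing the data.

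**Figure D2:**
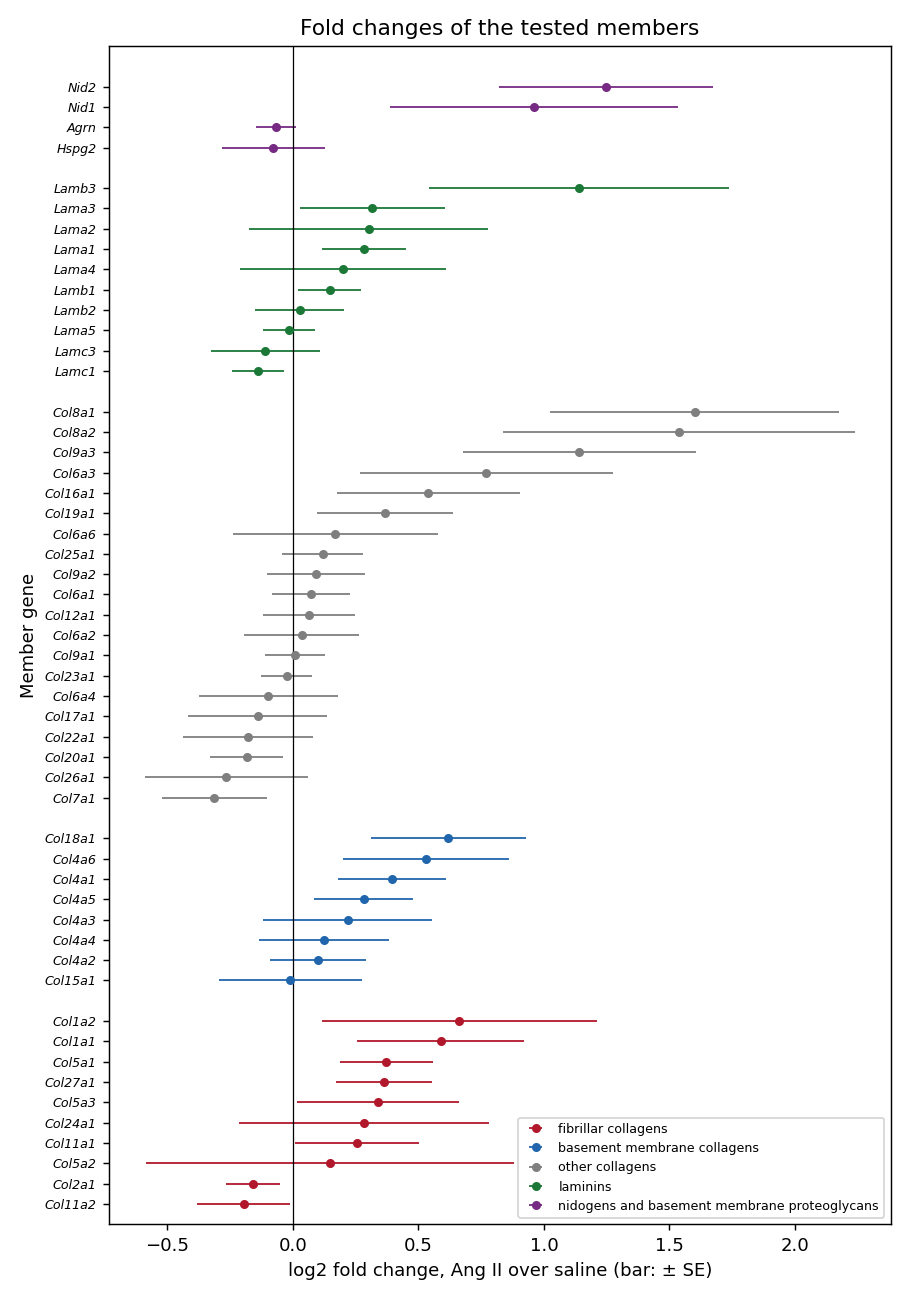
Fold changes of the 52 tested genes (log2, Ang II over saline, points with bars of ± SE) by class, from edgeR over all 7 libraries. Col8a1, Col8a2, Nid2, Col9a3 and Lamb3 lie farthest to the right, and Agrn, Lama5, Col9a1 and Col23a1 lie near 0 with short bars.

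The difference in summed level came mostly from 4 genes. Col8a1, Col8a2, Col9a3 and Nid2, a group formed after their values were seen, summed to 113, 124, 189 and 108 CPM with Ang II and 27.1, 23.97 and 94.2 CPM with saline, a ratio of means of 2.76. The other 55 genes summed to 842 ± 89.4 CPM (SD, n = 4) with Ang II and 794 ± 34.7 CPM (SD, n = 3) with saline, a ratio of 1.06.

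The type VIII chains had the largest fold changes. Type VIII is a short-chain collagen that forms hexagonal nets, known from Descemet's membrane of the cornea and from vessel walls. Col8a1 (ENSMUSG00000068196, chromosome 16, 57624258 to 57754737, mm10) stood at 37.03, 41.5, 50.6 and 31.7 CPM with Ang II and at 6.81, 6.66 and 26.1 CPM with saline. Saline replicates 1 and 2 were far below the other 5 libraries, and saline replicate 3 lay just under the lowest Ang II library. The log2 fold change was 1.60 ± 0.58 (SE), with an edgeR adjusted p of 0.982.

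Col8a2, the partner chain (ENSMUSG00000056174, chromosome 4, 126286793 to 126314330), stood at 50.5, 51.6, 87.7 and 54.3 CPM with Ang II and at 10.96, 7.36 and 44.4 CPM with saline. A pair of saline libraries was again low, and the third was near the Ang II group. The log2 fold change was 1.54 ± 0.70, with an edgeR adjusted p of 0.982. Col8a1 and Col8a2 were the only members of the 52 tested whose groups did not overlap, both higher with Ang II, beside 3.18% of all genes higher and 2.73% lower. The Col8a2 to Col8a1 ratio per length was 1.93 to 3.03 over all libraries, and the groups overlapped.

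Col9a3 encodes a chain of type IX collagen, which coats type II fibrils (ENSMUSG00000027570, chromosome 2, 180597790 to 180622189). It stood at 19.7, 22.4, 42.6 and 18.1 CPM with Ang II and at 7.804, 8.41 and 18.6 CPM with saline, so that saline replicate 3 exceeded Ang II replicate 4. The log2 fold change was 1.14 ± 0.46 (edgeR adjusted p = 0.982). The other type IX chains stood at 28.4 to 38.3 CPM (Col9a1) and 5.61 to 8.22 CPM (Col9a2) over all libraries, with log2 fold changes of 0.01 ± 0.12 and 0.09 ± 0.20. Tcfl5, on the opposite strand, shares 6.07% of the Col9a3 exon bases, and the library preparation did not mark strand.

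Nid2 encodes nidogen-2, a linker of laminin and type IV collagen (ENSMUSG00000021806, chromosome 14, 19751265 to 19811787). It stood at 6.07, 8.13, 7.65 and 4.22 CPM with Ang II and at 1.49, 1.54 and 5.13 CPM with saline. Saline replicates 1 and 2 were lowest, while saline replicate 3 exceeded Ang II replicate 4. The log2 fold change was 1.25 ± 0.43 (edgeR adjusted p = 0.982). Rtraf, on the opposite strand, shares 8.45% of its exon bases, the largest such share among the 18 of 59 genes that share any with another gene.

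The summed pigment epithelium markers were low in the same saline libraries. Of the 12 markers, 11 had a log2 fold change above 0 (48.9% of all genes), and 8 were higher with Ang II without overlap (3.18% of all genes). Best1, Dct, Pmel and Mlana overlapped. Pmel stood at 4.88, 12.4, 2.47 and 1.93 CPM with Ang II and 6.26, 1.54 and 5.75 CPM with saline, and Mlana at 1.59, 2.93, 0.1897 and 0.302 CPM with Ang II and 1.61, 1.12 and 1.41 CPM with saline, neither in the order of the sum. Their part in the difference of these 4 genes was not tested. Most of the summed marker level came from Rgr and Ttr. Their means were 538 and 509 CPM with Ang II and 173 and 164 CPM with saline, where the 12 markers summed to means of 1516 and 484 CPM. Per 1000 CPM of the summed markers, Col8a1 stood at 24.9 to 35.1, so that the highest library was 1.41 times the lowest, against 7.595 times in CPM. For Col8a2 the corresponding spans were 1.78 and 11.9 times. They were 2.06 and 5.47 times for Nid2, and 2.901 and 5.46 times for Col9a3. Relative to the markers, Col9a3 was highest in saline replicates 1 and 2, at 40.2 and 36.3, beside 13.9 to 20.97 in the other 5 libraries.

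**Figure D3:**
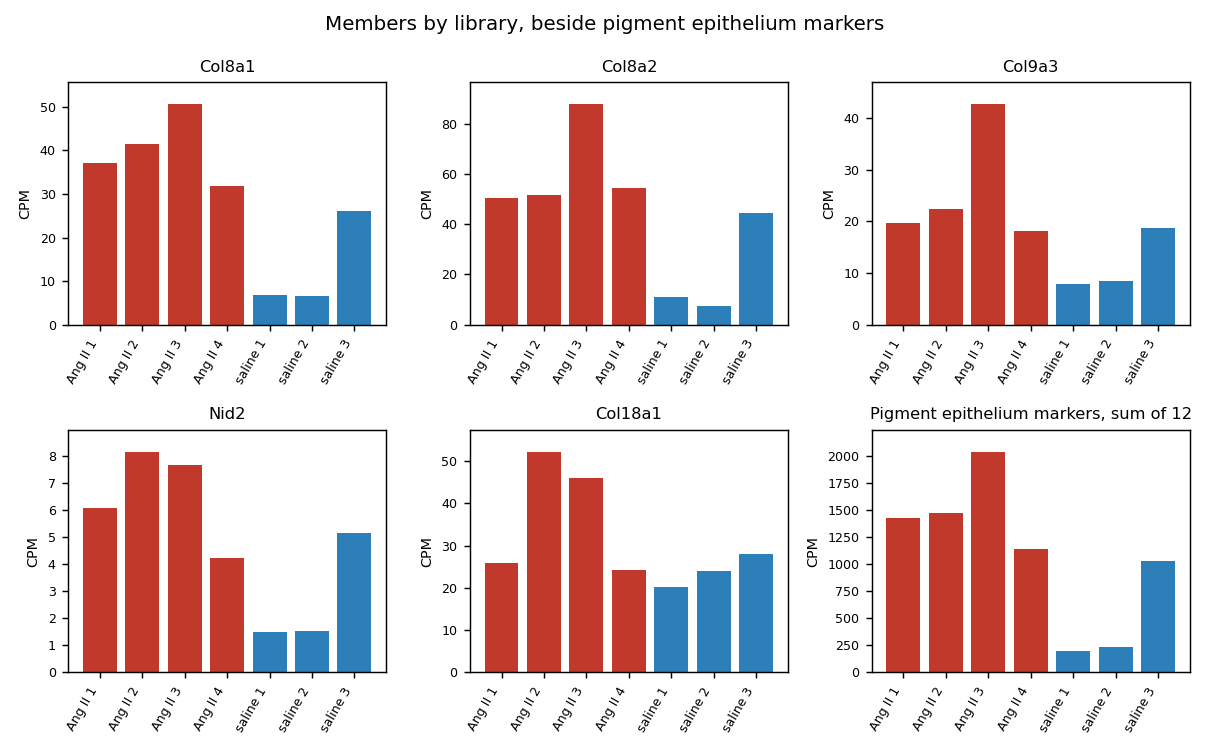
CPM of Col8a1, Col8a2, Col9a3, Nid2 and Col18a1 and the summed CPM of 12 pigment epithelium markers; each bar is a library, red for Ang II and blue for saline. In the first 4 genes and in the markers saline replicates 1 and 2 are lowest and saline replicate 3 is close to the lower Ang II libraries, while Col18a1 is high in Ang II replicates 2 and 3.

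Without saline replicate 3, edgeR called Col8a1 (log2 fold change 2.58, adjusted p = 1.45e-06), Col8a2 (2.73, adjusted p = 0.0137) and Nid2 (2.11, adjusted p = 0.00281). These were 3 of 54 tested, beside 0.667% of all genes. Col9a3 was then at 1.67 (edgeR adjusted p = 0.3097) and was not called. With all 7 libraries, limma-voom called all 4 genes, and edgeR called Nid2 without the filter on low counts (1.25, adjusted p = 0.00197). Without the filter edgeR called 1 of the 59 genes, beside 0.32% of all genes. The quality weights of limma-voom were unequal, at 3.33, 0.430 and 0.632 for saline replicates 1, 2 and 3. Those of the Ang II libraries were 1.26, 2.13, 0.597 and 0.692. Saline replicate 3 thus counted for less than saline replicate 1 in the limma-voom calls. With any single library other than saline replicate 3 left out, edgeR called 0 of these genes, and Col8a1 stayed between 1.28 and 1.70.

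**Figure D4:**
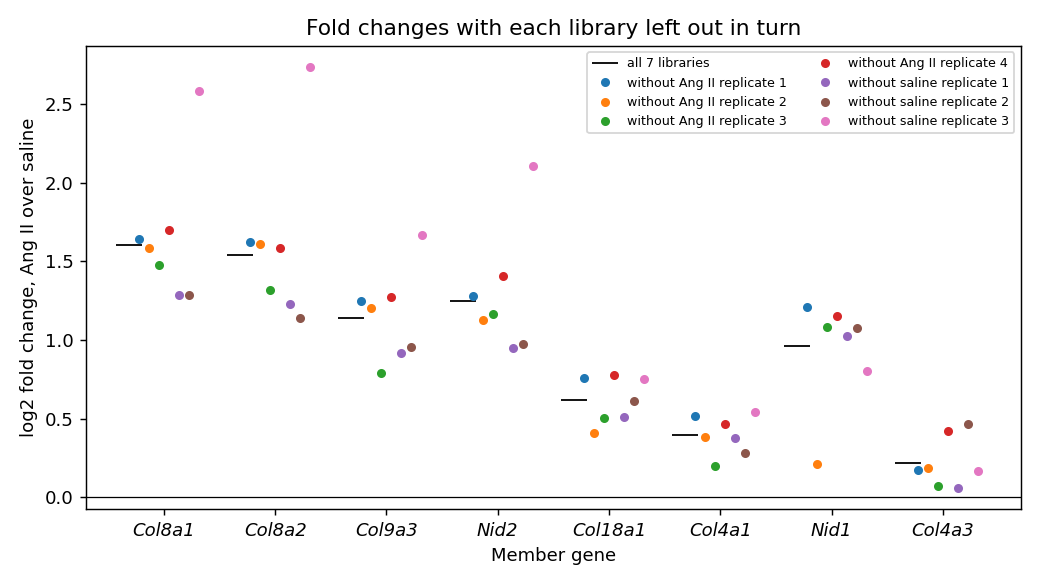
Log2 fold change (Ang II over saline) of 8 genes with all 7 libraries (black dash) and with each library left out in turn (points). Leaving out saline replicate 3 moves Col8a1, Col8a2, Col9a3 and Nid2 up, and leaving out Ang II replicate 2 takes Nid1 from 0.96 to 0.21.

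All 8 basement membrane collagens were tested, and 0 were called. Their median log2 fold change was 0.25, with 7 of 8 above 0, and -0.04 without Ang II replicates 2 and 3. Col4a1 (ENSMUSG00000031502, chromosome 8, 11198423 to 11312826), which with Col4a2 makes the common type IV network, stood at 36.4, 50.6, 68.7 and 42.1 CPM with Ang II and at 36.7, 31.4 and 44.6 CPM with saline. The library with high Gfap was highest, and the groups overlapped. The log2 fold change was 0.40 ± 0.21 (edgeR adjusted p = 0.982), and 0.20 without that library. That library also had the highest sum of pigment epithelium markers, and saline replicate 3 was highest of the saline libraries in Col4a1 and in those markers. The part of glia or pigment epithelium in this value was not tested.

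Col4a2 (ENSMUSG00000031503, chromosome 8, 11312805 to 11449287) stood at 33.2, 40.1, 57.6 and 34.03 CPM with Ang II and at 34.7, 34.6 and 46.1 CPM with saline. It too was highest in Ang II replicate 3, and its log2 fold change of 0.10 ± 0.19 became -0.10 without that library. The ends of Col4a1 and Col4a2 overlap by 22 bases, and the genes run in opposite directions from there. Their ratio per length, Col4a1 to Col4a2, was 0.972, 1.12, 1.06 and 1.096 with Ang II and 0.937, 0.806 and 0.857 with saline. Every Ang II library had a higher ratio than every saline library (1.06 ± 0.0644 against 0.867 ± 0.0663, SD). The exact two-sided permutation p was 0.0286. No smaller p can come from 35 arrangements, and adjusted over the 6 chain pairs compared it was 0.171. The test was added after the values were seen.

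Col4a3 and Col4a4 form, with Col4a5, the type IV network known from the kidney filter and from ocular basement membranes. Col4a3 stood at 66.1, 64.8, 79.2 and 33.5 CPM with Ang II and at 39.95, 69.3 and 47.9 CPM with saline (log2 fold change 0.22 ± 0.34). Col4a4, printed above with it, stood at 42.1, 44.2, 44.4 and 27.3 CPM with Ang II and at 26.8, 51.5 and 30.7 CPM with saline (0.12 ± 0.26). Both were lowest in Ang II replicate 4 and saline replicate 1 and the groups overlapped widely. Their ratio per length stayed between 1.304 and 1.896. Col4a5, on the X chromosome, stood at 9.30 to 14.6 CPM with Ang II and 8.18 to 12.1 CPM with saline (0.28 ± 0.20).

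Nid1 and Col4a6, unlike Col4a1 and Col4a2, were highest in Ang II replicate 2, the library with the highest sum of lens markers. Nid1, which encodes nidogen-1, stood at 13.9 CPM there and at 2.44 to 4.68 CPM elsewhere, and its log2 fold change of 0.96 ± 0.57 was 0.21 without that library. Col4a6, a chain of epithelial and smooth muscle basement membranes, stood at 5.26 CPM there and at 1.75 to 3.41 CPM elsewhere (0.53 ± 0.33, and 0.23 without it). The next highest lens sums were 411 CPM in saline replicate 3 and 338 CPM in Ang II replicate 3. Nid1 stood at 2.44 CPM, its lowest level, in the former and at 4.68 CPM in the latter. Col4a6 stood at 2.38 and 3.41 CPM in these libraries. In Ang II replicate 2 the 6 markers of ciliary body and cornea summed to 35.3 CPM, beside 4.55 to 13.4 CPM elsewhere. The part of neighbouring tissue in these values was not tested.

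Col18a1, whose product yields the angiogenesis inhibitor endostatin, stood at 25.8, 52.1, 45.9 and 24.1 CPM with Ang II and at 20.3, 23.9 and 28.1 CPM with saline. Ang II replicates 2 and 3 stood apart, and the other 5 libraries overlapped. The log2 fold change was 0.62 ± 0.31 (edgeR adjusted p = 0.982) and 0.05 without both libraries. Col15a1, a related collagen of vessel and muscle basement membranes, stood at 2.44 to 4.43 CPM with Ang II and 2.51 to 4.07 CPM with saline (-0.01 ± 0.29).

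**Figure D5:**
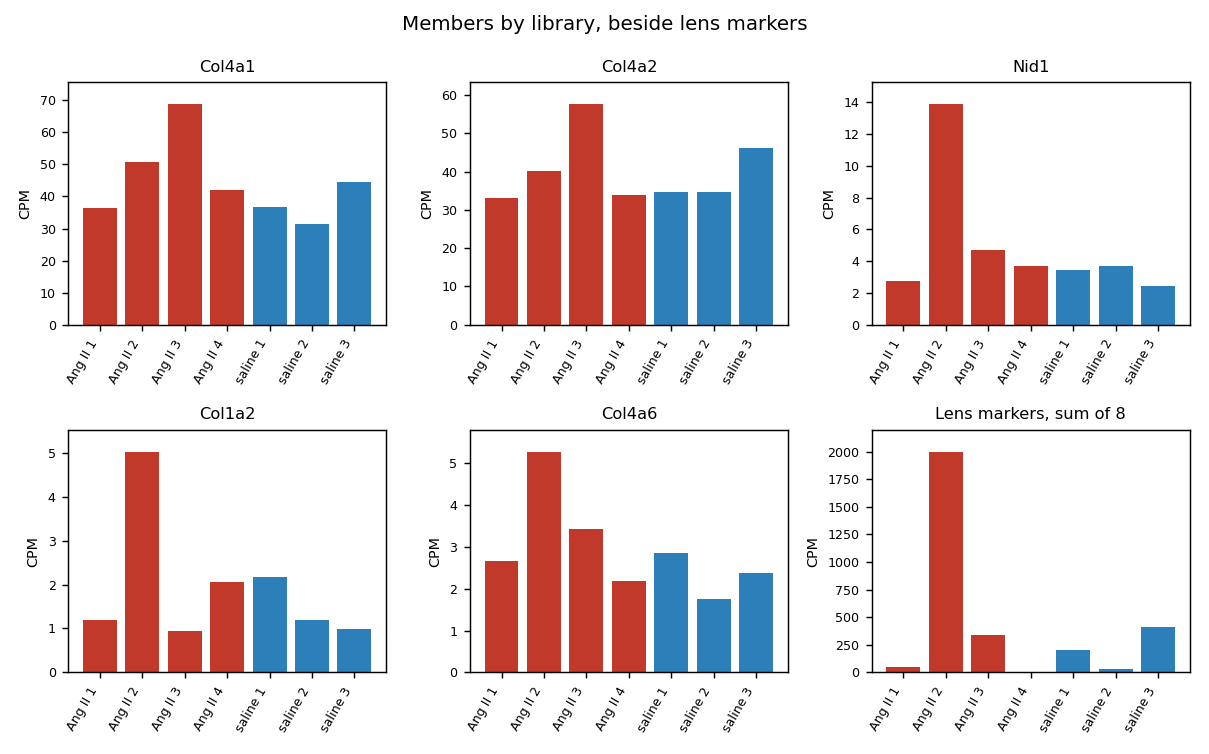
CPM of Col4a1, Col4a2, Nid1, Col1a2 and Col4a6 and the summed CPM of 8 lens markers; each bar is a library, red for Ang II and blue for saline. Nid1, Col1a2, Col4a6 and the lens markers are highest in Ang II replicate 2, while Col4a1 and Col4a2 are highest in Ang II replicate 3. In the libraries next highest in lens markers, Nid1 is lowest in saline replicate 3 and Col1a2 is lowest in Ang II replicate 3.

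Laminins were level in sum. The 11 chains summed to 132, 142, 144 and 142 CPM with Ang II and 142, 134 and 137 CPM with saline, and 0 of the 10 tested had an unadjusted p under 0.05. Lamc1 stood at 40.5, 40.1, 36.04 and 36.9 CPM with Ang II and at 46.02, 43.04 and 37.9 CPM with saline (log2 fold change -0.14 ± 0.10). Lama5 and Lamb2 form with Lamc1 a laminin of mature vessel and epithelial basement membranes. Lama5 stood at 29.1 to 32.5 CPM over all libraries (-0.02 ± 0.10), and Lamb2 at 15.5 to 27.2 CPM, highest in Ang II replicate 3 (0.03 ± 0.18).

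Lama1, an alpha chain of early embryos that the inner limiting membrane also uses, stood at 9.47, 14.5, 11.9 and 13.03 CPM with Ang II and at 10.5, 10.2 and 9.41 CPM with saline (0.28 ± 0.17). The groups overlapped through Ang II replicate 1. Lamb1 had a log2 fold change of 0.15 ± 0.13, and Lamc3, a gamma chain known from the retina, one of -0.11 ± 0.22. The vessel chain Lama4 (0.20 ± 0.41), the muscle and nerve chain Lama2 (0.30 ± 0.48) and the epithelial chain Lama3 (0.32 ± 0.29) were at or below 5.93 CPM in every library. Lamb3, an epithelial chain, had 4 to 24 counts per library, on which its log2 fold change of 1.14 ± 0.60 rests.

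The proteoglycans differed little. Agrn stood at 101, 107, 111 and 112 CPM with Ang II and at 114, 112 and 112 CPM with saline, a log2 fold change of -0.07 ± 0.08 with the smallest SE of the 52 genes. Hspg2, which encodes the heparan sulfate proteoglycan perlecan, stood at 8.79 to 17.8 CPM with Ang II and 12.6 to 15.7 CPM with saline (-0.08 ± 0.20). The 9 endothelial markers summed to 316 ± 27.4 CPM (SD, n = 4) with Ang II and 328 ± 16.5 CPM (SD, n = 3) with saline. Most of that sum came from Flt1 (means of 136 and 141 CPM) and Kdr (109 and 116 CPM), so it says little about the other markers.

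Of the 11 fibrillar collagens 10 were tested, 8 were above 0 and 0 were called. Their median log2 fold change was 0.31, and 0.04 without Ang II replicates 2 and 3. Col5a1, a chain that starts fibrils, stood at 9.697, 13.4, 14.8 and 9.59 CPM with Ang II and at 8.49, 9.81 and 9.23 CPM with saline. The excess lay in Ang II replicates 2 and 3, and the others overlapped with saline (0.37 ± 0.18, edgeR adjusted p = 0.982). Col27a1, a minor fibrillar collagen, stood at 36.5 CPM in Ang II replicate 3 and at 18.6 to 22.3 CPM elsewhere (0.36 ± 0.19, and 0.13 without that library).

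Col1a1, the main chain of fibrotic matrix, stood at 1.93, 2.87, 3.29 and 1.93 CPM with Ang II and at 1.67, 2.103 and 1.22 CPM with saline (0.59 ± 0.33). Again Ang II replicates 2 and 3 were highest and the others lay among saline. Its partner Col1a2 stood at 5.01 CPM in Ang II replicate 2 and at 0.948 to 2.17 CPM elsewhere, and its log2 fold change of 0.66 ± 0.55 became -0.05 without that library. Col3a1, their companion in scar tissue, had 2 to 5 counts per Ang II library and 13, 0 and 0 counts with saline, and was not tested. The 10 fibroblast markers summed to 26.5, 48.2, 32.7 and 28.5 CPM with Ang II and 30.8, 21.2 and 29.8 CPM with saline, also highest in Ang II replicate 2. Fmod stood at 16.6 CPM in that library, beside 2.87 to 5.95 CPM elsewhere, and Ogn, Pdgfra and Igfbp6 were also highest there. Dcn was highest in saline replicate 1 (6.75 CPM) and Mgp in Ang II replicate 3 (10.6 CPM). Of the 10 markers, Kera was at 0 counts in every library, and Lum, Dpt and Pi16 were at or below 0.569 CPM. The part of fibroblasts in these values was not tested.

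The 2 fibrillar chains with fold changes below 0 were Col2a1 and Col11a2, both of vitreous and cartilage. Col2a1 stood at 40.8, 41.2, 40.3 and 33.9 CPM with Ang II and at 43.05, 47.6 and 40.2 CPM with saline (-0.16 ± 0.11). Col11a2, which joins type II fibrils, stood at 8.19 to 13.7 CPM with Ang II and 10.8 to 12.1 CPM with saline (-0.20 ± 0.19). Groups overlapped in both, and the related Col11a1 was at 0.26 ± 0.25.

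The 17 other tested collagens had log2 fold changes from -0.31 (Col7a1, of anchoring fibrils) to 0.77 (Col6a3). Col23a1 stood at 56.1 to 68.7 CPM with Ang II and 58.7 to 69.98 CPM with saline (-0.02 ± 0.10). Type VI chains form beaded filaments around cells. Col6a1 stood at 25.2 to 40.2 CPM with Ang II and 27.7 to 35.1 CPM with saline (0.07 ± 0.15), and Col6a2 had a log2 fold change of 0.03 ± 0.23. Col6a3, the third chain of that trimer, had 5 to 24 counts per library (0.77 ± 0.50). Col10a1, Col13a1, Col14a1, Col28a1 and Col6a5 were too low for the test, with 0 to 14 counts per library.

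Genes that fold, trim, crosslink or bind these chains were read from separate lists, in which edgeR called 0 genes. The shares over all genes, to set beside each list, are 48.9% above 0 and 4.62% with an unadjusted p under 0.05. For groups that did not overlap they are 3.18% higher with Ang II and 2.73% lower. Of 21 tested genes of chain folding and assembly, 12 were above 0 and 0 had an unadjusted p under 0.05, with a median log2 fold change of 0.01. The lowest p values there belonged to Ppib, a prolyl isomerase (0.23 ± 0.12), and Plod2, a lysyl hydroxylase (0.24 ± 0.18). Of 13 tested genes of processing and crosslinking, 7 were above 0 and 2 had an unadjusted p under 0.05, with a median of 0.02. Loxl1, a lysyl oxidase of elastic fibres, stood at 9.30, 10.8, 13.2 and 10.6 CPM with Ang II and at 6.19, 3.43 and 8.801 CPM with saline (0.83 ± 0.26, edgeR adjusted p = 0.982). edgeR called Loxl1 without saline replicate 3, at 1.19 (adjusted p = 0.0301), and without the filter on low counts, at 0.83 (adjusted p = 0.0212). These fits called 0.667% and 0.32% of all genes. Pcolce, an enhancer of procollagen cleavage, stood at 12.3, 17.3, 31.6 and 10.8 CPM with Ang II and at 5.82, 4.63 and 8.801 CPM with saline (1.48 ± 0.44, edgeR adjusted p = 0.982). It was called by limma-voom, at 1.38 (adjusted p = 0.0359), and by edgeR with the replicate block, at 1.61 (adjusted p = 3.00e-04). Those fits called 0.831% and 0.337% of all genes. The block fit left out Ang II replicate 4, the lowest Ang II library in Pcolce, and no label says that replicate numbers pair libraries. In both genes saline replicate 3 was highest of the saline libraries, as it was in the pigment epithelium markers, whose part in these values was not tested. The groups did not overlap in 3 of the 13 genes, Loxl1, Pcolce and Adamts2, all higher with Ang II. Adamts2 stood at 2.63 to 3.48 CPM with Ang II and 1.26 to 2.51 CPM with saline (0.64 ± 0.30, edgeR adjusted p = 0.982).

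Of 16 tested other proteins of basement membranes, 10 were above 0 and 2 had an unadjusted p under 0.05, with a median log2 fold change of 0.11. Fbln5, which encodes the elastic fibre protein fibulin-5, stood at 4.82, 6.36, 6.13 and 5.01 CPM with Ang II and at 2.35, 3.22 and 2.87 CPM with saline. The groups did not overlap, and saline replicate 3 lay between the other saline libraries. Its log2 fold change of 0.99 ± 0.24 had an edgeR adjusted p of 0.587, the smallest in these lists, and 0.87 to 1.09 was its range with 1 library left out. limma-voom called it (log2 fold change 1.17, adjusted p = 0.0145). Ntn4, which encodes the laminin-binding netrin-4, stood at 21.3, 27.5, 27.7 and 22.3 CPM with Ang II and at 18.1, 17.2 and 20.4 CPM with saline, without overlap (0.41 ± 0.14, edgeR adjusted p = 0.982). Among 15 tested receptors 8 were above 0 and 1 had an unadjusted p under 0.05, with a median of 0.02. This was Cd44, a hyaluronan receptor that also binds collagen, highest in Ang II replicates 2 and 3 (0.56 ± 0.23). Itga6, a laminin receptor chain, stood at 17.97 CPM in Ang II replicate 2 and 5.68 to 9.72 CPM elsewhere (0.59 ± 0.29).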

How the data were processed

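Poly-A selected RNA of mouse retina was sequenced in 7 libraries, without a strand-marking step, per the labels' protocols. The authors deposited unnormalized whole-number counts per gene. CASAVA, HISAT2 2.0.5, featureCounts 1.5.0-p3 and mm10 are named per the submitters' processing notes. Which annotation release was counted is not given in the sources used here, nor is the strand setting. Columns were matched by sample description, and 0 columns remained without a sample. All 59 genes had the same start and end in GENCODE M21.

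The main test was edgeR 4.0.16 in R 4.3.3 (filterByExpr, TMM, robust quasi-likelihood fit, two-sided, Benjamini-Hochberg adjustment, threshold 0.05) on all 7 libraries. The SE of a log2 fold change is its size divided by the root of F. CPM is relative to the TMM-scaled total, and gene lengths are the deposited ones. Alternatives were DESeq2 1.42.0, limma 3.58.1, other scalings and filters, a replicate block and left-out libraries. The replicate block used replicates 1 to 3 of each group and left out Ang II replicate 4, which has no saline library of its number. The fit was also run on simulated data. How many true changes it recovered there is not reported here, so the count of 0 genes called does not show that few genes changed.

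The members and lists were chosen with earlier results of these data known. Genes were named for an unadjusted p under 0.05, for the 3 smallest p or 3 highest levels per length in a class, as type IV or laminin chains, or as the 2 smallest p of a pathway list. Other genes, among them Col1a2, Col3a1, Col6a2, Col6a3, Col7a1, Col9a1, Col9a2, Col11a1, Col15a1 and Adamts2, were named after their values were seen. The values of 1 laminin gene are not reported here.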

Additional observations from a re-analysis of the deposited data

Results flagged for a closer look

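In 6 of 60 genes checked, 1 of the 4 Ang II libraries lay so far from the others that its gap to the nearest, as a share of the group's range in log2 CPM, passed the Dixon limit. Chance passes about 1 in 20. Ang II replicate 4 was lowest in Col2a1 (33.9 CPM, share 0.894), Col4a4 (27.3 CPM, share 0.890) and Col22a1 (2.29 CPM, share 0.906). Ang II replicate 3 was highest in Col5a3 (3.86 CPM, share 0.884) and Col8a2 (87.7 CPM, share 0.869). Ang II replicate 1 was lowest in Col5a2 (0.0567 CPM, share 0.889), where it had 1 count.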

How the results depend on the processing

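edgeR called 0 genes with all 7 libraries, TMM scaling and the filter on low counts. It called 98 without the filter (0.32% of all genes) and 57 with the replicate block (0.337%). It called 1 after both Ang II replicates 2 and 3 were left out (0.00581%). With a single library left out it called 0 to 117 (117, or 0.667%, for saline replicate 3). DESeq2 called 36 (0.213%) and limma-voom 142 (0.831%). Of the collagen, laminin and nidogen genes, edgeR called 1 of 59 without the filter (Nid2, adjusted p = 0.00197), and limma-voom called 4 of 52. With the replicate block edgeR called 2 of 51 (Col18a1 at 0.73 and Col9a3 at 1.31). That fit left out Ang II replicate 4, the lowest Ang II library in Col18a1 and Col9a3. With a single library left out edgeR called 0 to 3. The labels do not say that replicate numbers pair libraries: deviations of same-numbered libraries correlated at -0.07, -0.02 and 0.05, and 1 of 6 libraries correlated best with its own number. The median log2 fold change of the tested members was 0.09 to 0.21 with a single library left out. Of 39 genes named by the rules above with a fold change, 27 kept their side of 0 under every alternative. Genes named after their values were seen are not in that count. Among them Col11a1 turned to -0.152 without Ang II replicates 2 and 3, and Col15a1 to 0.0401 with library size scaling. Col1a2 turned below 0 without Ang II replicate 2. With library size scaling Col23a1 was at 0.0206 and Lama5 at 0.0314. With limma-voom Col23a1 was at 0.0871, Col6a1 at -0.0471, Lamb2 at -0.183 and Lamc3 at 0.0413. With the replicate block Lamb2 was at -0.0310 and Lama5 at 0.00514. After both Ang II replicates 2 and 3 were left out, Col4a2 was at -0.194, Col4a3 at -0.0711, Col4a4 at -0.0613, Col4a5 at -0.0131 and Lamb2 at -0.0464. With a single library left out the ranges were -0.0979 to 0.258 for Col4a2, -0.0808 to 0.0524 for Col23a1, -0.0254 to 0.183 for Col6a1, -0.140 to 0.137 for Lamb2, -0.0404 to 0.0307 for Lama5, -0.263 to 0.0735 for Hspg2, -0.0508 to 0.458 for Col4a4, -0.0974 to 1.12 for Lama2, -0.197 to 0.739 for Lama4 and -0.235 to 0.0562 for Lamc3. The cause of these turns was not tested. Lamb3 and Col6a3, with few counts, had SEs of 0.60 and 0.50, which hold both counting error and the spread between libraries.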
